A study of Homo sapiens with 4 samples.

Results

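The genes described here are 39 parts of the autophagy machinery, listed by symbol, among 63677 Ensembl genes counted in LX-2 cells. All 39 were found in the count table, and all 39 were among the 18252 genes expressed highly enough to be tested. LX-2 is an established cell line derived from human hepatic stellate cells, the collagen-producing cells of the injured liver. The cells were transfected by Lipofectamine RNAiMAX with 20 nM of the miR-6133-5p mimic, a synthetic double-stranded RNA that acts as the microRNA, or with 20 nM of miControl, a negative control mimic. After 24 h, rhTGF-β1 was added at 5 ng/mL to every culture, and RNA was taken after a further 24 h. Each group had 2 libraries, so that both groups shared the transfection and the TGF-β treatment, and no library came from cells without either. The labels do not say whether replicates were separate cultures, and the p-values therefore measure the spread between these libraries, which may be technical.

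In autophagy, a membrane sac grows around cytoplasmic material, closes to form the autophagosome and fuses with the lysosome, where the contents are degraded. The ULK1 kinase complex starts the process, and a class III PI3-kinase complex marks the membrane with a phospholipid that WIPI proteins bind. ATG9 vesicles and ATG2 proteins supply lipid to the growing sac. A pair of ubiquitin-like conjugation reactions then attaches ATG8 proteins (the LC3 and GABARAP families) to the membrane, where they bind receptors that carry cargo. TP53INP2 and TP53INP1 are small proteins that bind ATG8 proteins, and TP53INP2 also moves out of the nucleus to the forming autophagosome when autophagy is induced. In hepatic stellate cells, autophagy is known for the breakdown of lipid droplets during activation.

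Library totals ran from 51862006 to 93811213 counts, and the smallest count of any of the 39 genes in a library was 74. Levels are given as CPM, counts brought to a common library size, with library totals adjusted by the TMM factors of edgeR. The stellate and mesenchymal marker *VIM* was between 1555 and 2030 CPM and *PDGFRB* between 38.3 and 47.4 CPM, whereas *DES* and *LRAT*, which mark stellate cells in the liver, did not exceed 0.0706 CPM in any library. The summed level of the 11 stellate and mesenchymal markers was 5110 and 4630 CPM under miControl and 3100 and 2780 CPM in the mimic libraries. Most of that difference was *COL1A1* (2917 ± 275 against 1064 ± 97.5 CPM), with *COL1A2* and *ACTA2* also called lower, whereas the groups overlapped for *VIM* and *PDGFRB*. The summed level of 5 cholangiocyte and epithelial markers was 83.9 and 85.4 CPM under miControl and 39.9 and 36.8 CPM in the mimic libraries. Within it *SOX9* was lower (80.5 ± 0.427 against 31.3 ± 2.53 CPM), *KRT7* was higher (4.03 ± 0.582 against 6.84 ± 0.335 CPM, edgeR adjusted p = 0.00317), *KRT19* had too few counts for a test, and *EPCAM* and *CDH1* did not exceed 0.0407 CPM. Markers of hepatocytes (7 genes, 2.07 to 2.81 CPM, with *TTR* and *HNF4A* at 0), endothelial cells (4 genes, 3.34 to 4.26 CPM) and leukocytes (5 genes, 9.16 to 11.2 CPM, with *CD3E* at 0) stayed low in all 4 libraries. Most of the leukocyte sum was *CSF1R*, at 8.72 ± 1.01 CPM under miControl and 7.10 ± 0.108 CPM in the mimic libraries. The part of these marker differences in the autophagy results was not tested. In bulk RNA of this kind, fewer cells that express a gene and less of its RNA per cell cannot be told apart.

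The autophagy genes moved in both directions. A gene was called lower or higher where the adjusted p-value of edgeR's quasi-likelihood test was below 0.01 and the log2 fold change of miR-6133-5p over miControl was beyond 0.8. By this rule 4 of the 39 genes were called lower, namely *TP53INP2*, *ATG13*, *WIPI1* and *ATG9A*, a share of 10.3% against 5.54% of all tested genes. The 39 genes, *TP53INP2* included, were chosen with earlier results of these data known, so this share is a description. The genes called higher were *ATG16L1* and *SQSTM1*, a share of 5.13% against 2.9% of all tested genes. When glmTreat in edgeR tested the fold change against 0.8 itself, 1 of these 6 genes, *TP53INP2*, was called. At an adjusted p-value below 0.05 with no limit on the fold, 7 were lower (17.9%, against 16.1% of all tested genes), 9 were higher (23.1%, against 14.1%) and 23 passed in neither direction. Without miControl replicate 1, these counts were 4 lower and 6 higher. The miR-6133-5p pair lay wholly below the miControl pair for 15 genes (38.5%, against 31.3% of all tested genes) and above them for 16 (41.0%, against 33.2%).

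The median log2 fold change of the 39 genes was 0.04, and that of all tested genes was 0.03. The genes had no common direction, and 21 of the 39 lay within 0.3 of 0 on the log2 scale. Scaling by library totals alone, without TMM factors, raised the median of all tested genes to 0.19 and that of the 39 genes to 0.205, so that the difference between the medians was 0.01 under both scalings. Under library totals, 2 of the 39 genes were called lower and 3 higher, and 5 were lower and 13 higher at an adjusted p-value below 0.05 (edgeR). Directions below are those under TMM, and the genes whose direction turns under library totals are named where they occur.

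**Figure D1:**
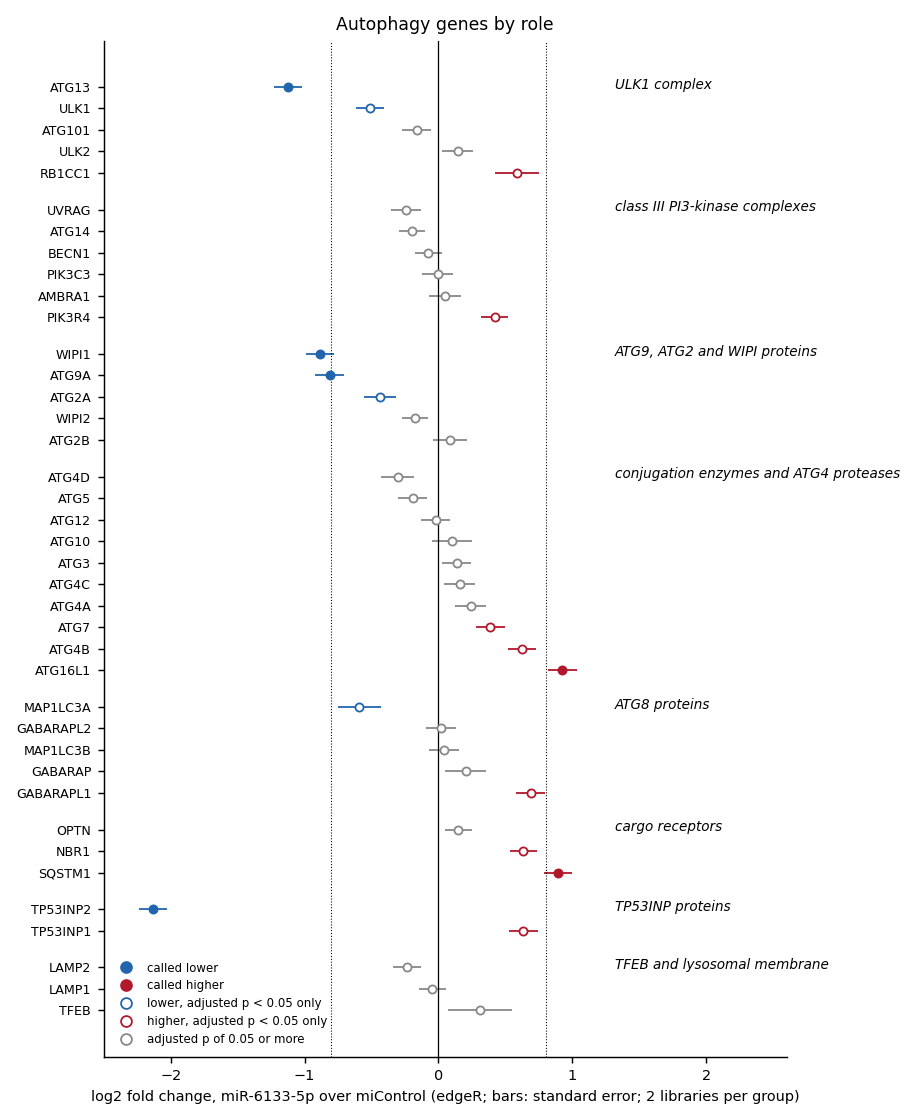
Autophagy genes by role, with the log2 fold change of miR-6133-5p over miControl on the x axis, points for the edgeR estimate, bars for its standard error (2 libraries per group) and dotted lines at the call limit of 0.8 in either direction. *TP53INP2* stands farthest from 0 at -2.13, and most genes of the class III PI3-kinase, conjugation and ATG8 groups sit near 0.

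*TP53INP2* (ENSG00000078804), on chromosome 20 from 33292143 to 33301243 of GRCh37, had the largest change of the 39 genes. Its level was 95.8 and 92.1 CPM in the miControl libraries and 21.1 and 21.7 CPM in the miR-6133-5p libraries. The groups were far apart and the replicates close together. The level fell from 94.0 ± 2.67 to 21.4 ± 0.439 CPM (SD, n = 2), which left 22.8% of the miControl level, for a fold change of -2.13 on the log2 scale (standard error 0.104, 95% interval -2.36 to -1.91, edgeR adjusted p = 2.79e-08). It was number 102 from the lowest among the 18252 genes tested. The study had selected *TP53INP2*, as a predicted target with lower expression in these libraries, for knockdown by siRNA, so that its fall here is not independent evidence of the direction. Among the genes so knocked down, the study reported that only *TGFBR2* met its limit for lowering *COL1A1* and *ACTA2*. No exon of another counted gene overlaps *TP53INP2*.

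*TP53INP1* (ENSG00000164938), a p53-induced relative of *TP53INP2* that also binds ATG8 proteins, moved the opposite way. It lies on chromosome 8 from 95938200 to 95961606. Its level was 21.7 and 21.1 CPM under miControl and 33.0 and 33.6 CPM in the mimic libraries. Both miR-6133-5p libraries lay above both miControl libraries, and the log2 fold change was 0.64 (standard error 0.107, 95% interval 0.40 to 0.87, edgeR adjusted p = 0.00057). Per kilobase of exon, which allows genes to be compared, *TP53INP2* was at 22.5 ± 0.638 and *TP53INP1* at 3.80 ± 0.0718 CPM per kb under miControl. With miR-6133-5p they were at 5.12 ± 0.105 and 5.90 ± 0.0707 CPM per kb, so that the order of the pair turned, by more than the spread between replicates. Among the 39 genes, *TP53INP2* went from number 4 in level per kilobase to number 28, and *TP53INP1* from number 32 to number 24.

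**Figure D2:**
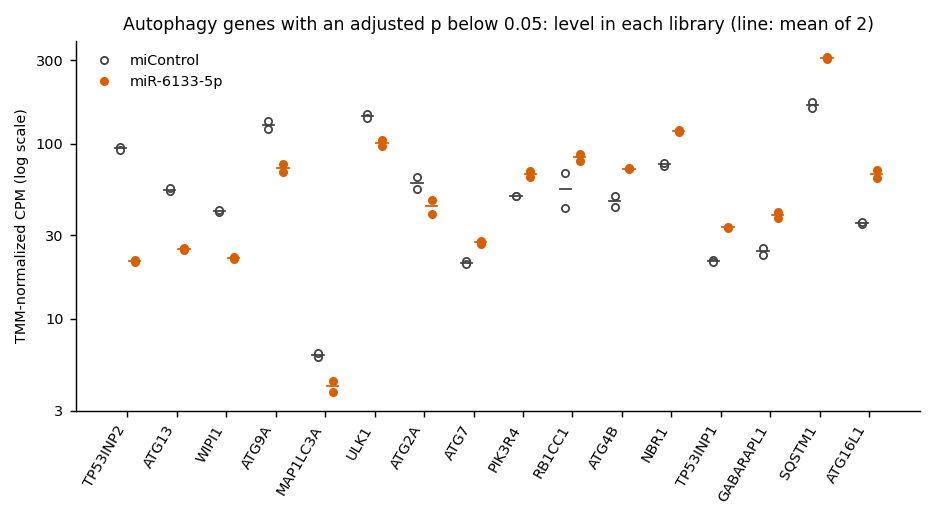
Level of each of the 16 autophagy genes with an adjusted p-value below 0.05, as TMM-normalized CPM on a log axis, with open points for the 2 miControl libraries, filled points for the 2 miR-6133-5p libraries and a line at each mean. In none of the 16 do the groups overlap, which follows largely from choosing them on these same libraries. The miR-6133-5p pair lay wholly below for 31.3% and wholly above for 33.2% of all tested genes. The *RB1CC1* values under miControl, 43.1 and 67.9 CPM, spread the most.

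Because a microRNA pairs with short stretches of a transcript's 3′ untranslated region (UTR), the canonical 3′ UTRs of the 39 genes were searched for letters that pair with the microRNA's precursor. The RefSeq table used here (GRCh38.p14) held the MIR6133 hairpin of 108 bases and no mature sequence, so each of its 102 stretches of 7 bases was considered. The stretches were ranked by the mean log2 fold change of tested genes with a matching 3′ UTR less that of genes without, leaving out the 39 autophagy genes. The stretch with the lowest value was GAGGGAG, bases 72 to 78 of the hairpin, whose pairing site reads CTCCCTC on the transcript strand, the only strand searched. Genes with CTCCCTC numbered 2858 and had a median log2 fold change of -0.16, against 0.08 for the 10482 genes without it. Next came UGAGGGA, whose site TCCCTCA shares 6 of its letters with CTCCCTC. All 102 stretches had a value below 0, from -0.281 for GAGGGAG to -0.0698 for the last in rank. A value below 0 was thus not particular to CTCCCTC, and what the stretches share was not tested. The medians above rest on the same libraries that ranked the stretches and are a description.

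CTCCCTC occurred in the 3′ UTR of 7 of the 39 autophagy genes (17.9%) and of 21.4% of the 13379 tested genes with a canonical 3′ UTR. The median 3′ UTR length was 1442 bases for the autophagy genes and 1321 bases for the tested genes. The 7 genes were *TP53INP2*, *ATG13*, *ULK1*, *ULK2*, *ATG2B*, *TP53INP1* and *TFEB*. Of these, 3 had a log2 fold change below 0 and 4 above, with a median of 0.09, against 0.03 for the 32 genes without the letters. Matches were thus found in genes of both directions. *ULK2* held 4 matches and *TFEB* 2, at log2 fold changes of 0.14 and 0.31, and neither passed the test. *TP53INP1*, with 1 match, rose past 0.05 (log2 fold change 0.64, edgeR adjusted p = 0.00057). The stretches of *ULK2*, *TFEB* and *TP53INP1* are not printed. Below are the stretches around the match in the 3 genes that fell and in 1 that did not pass the test, 5′ to 3′ on the transcript strand of GRCh37 with the 7 matching letters in capitals. The capitals lie at chr20:33300074-33300080 in *TP53INP2*, chr11:46695146-46695152 in *ATG13*, chr12:132406341-132406347 in *ULK1* and chr14:96748005-96748011 (minus strand) in *ATG2B*.
TP53INP2: gagctgaatCTCCCTCcaacccttc
ATG13: agctaccatCTCCCTCtaatcccag
ULK1: caggagcctCTCCCTCcgagatacc
ATG2B: tagcagcacCTCCCTCtaaaaatat

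In the ULK1 complex, which receives the signal to start autophagy, *ATG13* and *ULK1* fell and *RB1CC1* rose. *ATG13* (ENSG00000175224, chromosome 11 from 46639077 to 46696368) encodes the subunit that bridges the kinase and the rest of the complex. Its level was 53.7 and 55.9 CPM under miControl and 24.9 and 25.4 CPM in the mimic libraries. The groups did not overlap, and the level fell from 54.8 ± 1.602 to 25.1 ± 0.382 CPM (SD, n = 2), for a fold change of -1.12 on the log2 scale (standard error 0.103, 95% interval -1.35 to -0.90, edgeR adjusted p = 3.84e-06). Per kilobase of exon, *ATG13* fell from 7.83 to 3.59 CPM per kb, and from number 19 to number 33 in level among the 39 genes.

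*ULK1*, the kinase itself, was at 148 and 139.5 CPM under miControl and at 96.7 and 105 CPM in the mimic libraries. The groups did not overlap, and the log2 fold change was -0.51 (standard error 0.104, edgeR adjusted p = 0.00231), short of the call limit. *ULK2*, the second kinase of the family, stood far below *ULK1* at 1.59 against 18.8 CPM per kb under miControl, and its log2 fold change was 0.14 (95% interval -0.10 to 0.39, edgeR adjusted p = 0.389). *RB1CC1*, the large scaffold also known as FIP200, was at 43.1 and 67.9 CPM under miControl and at 79.7 and 87.3 CPM in the mimic libraries. Its miControl replicates were farther apart than those of any other gene of the complex. The log2 fold change was 0.59 (standard error 0.163, edgeR adjusted p = 0.0152), and without miControl replicate 1 it was 0.29 with an edgeR adjusted p of 0.258, whereas without miControl replicate 2 it was 0.93. *ULK1* was also no longer past 0.05 without miControl replicate 1 (edgeR adjusted p = 0.0652). *ATG101*, which stabilizes ATG13, had a log2 fold change of -0.16 (edgeR adjusted p = 0.289), and 0.00 under library totals. Of its exon sequence, 19.2% is overlapped from the opposite strand by a gene listed at 0.

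Of the class III PI3-kinase genes, 1 of 6 passed the test as higher (16.7%, against 14.1% of all tested genes). None passed as lower (against 16.1%). *PIK3R4*, the regulatory subunit that anchors the kinase, was at 50.0 and 50.5 CPM under miControl and at 64.3 and 70.0 CPM in the mimic libraries. Both miR-6133-5p libraries were higher, the log2 fold change being 0.42 (standard error 0.102, edgeR adjusted p = 0.00729), which missed 0.05 without either miControl replicate (edgeR adjusted p of 0.117 without replicate 1 and 0.108 without replicate 2). For the catalytic subunit *PIK3C3* the log2 fold change was -0.01 (95% interval -0.26 to 0.25), and for the scaffold *BECN1* it was -0.08 (95% interval -0.29 to 0.14). Changes inside these intervals could not be detected, and both estimates lay above 0 under library totals, at 0.16 and 0.09. *ATG14*, which directs the complex to autophagosome formation, was at -0.20, *UVRAG*, its counterpart in later steps, at -0.24, and *AMBRA1*, a partner of Beclin 1, at 0.05 on the log2 scale. *UVRAG* passed 0.05 without miR-6133-5p replicate 1 (edgeR adjusted p = 0.0215). Opposite-strand genes overlap 17.1% of the *BECN1* exon sequence and 20.8% of that of *ATG14*, and the strand setting of the counting is not given in the sources used here. The neighbour of *BECN1*, *PSME3*, was at 337 ± 0.652 CPM under miControl with a log2 fold change of -0.64, and that of *ATG14*, *FBXO34*, was called higher at 1.03, so that the values of *BECN1* and *ATG14* are uncertain to that extent.

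The ATG9, ATG2 and WIPI genes held the most falls, with 3 of 5 lower at an adjusted p-value below 0.05 (against 16.1% of all tested genes), none higher (against 14.1%), and a median log2 fold change of -0.44. *WIPI1* (ENSG00000070540, chromosome 17 from 66417089 to 66453654), which binds the phospholipid made by the PI3-kinase, was at 40.7 and 41.6 CPM under miControl and at 22.0 and 22.7 CPM in the mimic libraries. The replicates were close and the groups apart, the log2 fold change being -0.88 (standard error 0.105, 95% interval -1.11 to -0.66, edgeR adjusted p = 3.48e-05). Of the *WIPI1* exon sequence, 28.1% is overlapped from the opposite strand by *ARSG* and a gene without a symbol. The library kit keeps the strand, but the counting may not have used it. *ARSG* itself was at 4.33 ± 0.451 CPM under miControl and 3.34 ± 0.294 CPM in the mimic libraries, a small level beside that of *WIPI1*.

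*ATG9A* (ENSG00000198925, chromosome 2 from 220084102 to 220094439), the membrane protein whose vesicles seed the autophagosome, was at 134 and 122 CPM under miControl and at 69.2 and 76.4 CPM in the mimic libraries. The groups did not overlap, and the log2 fold change was -0.81 (standard error 0.107, 95% interval -1.05 to -0.58, edgeR adjusted p = 8.64e-05), close to the call limit. It was short of 0.8 without miControl replicate 1 (-0.75) and without miR-6133-5p replicate 1 (-0.76). Under library totals *ATG9A* was at -0.65 and *WIPI1* at -0.72, and neither was called. The lipid transfer protein gene *ATG2A* was at 64.3 and 55.0 CPM under miControl and at 39.9 and 48.0 CPM in the mimic libraries, for a fold change of -0.44 on the log2 scale (standard error 0.121, edgeR adjusted p = 0.0144). It did not pass 0.05 under library totals (edgeR adjusted p = 0.0935) or without miControl replicate 1 (0.219). Its paralog *ATG2B* had overlapping groups and a log2 fold change of 0.09 (95% interval -0.19 to 0.36), and *WIPI2*, a relative of *WIPI1* that recruits ATG16L1, was at -0.18 (95% interval -0.39 to 0.04).

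**Figure D3:**
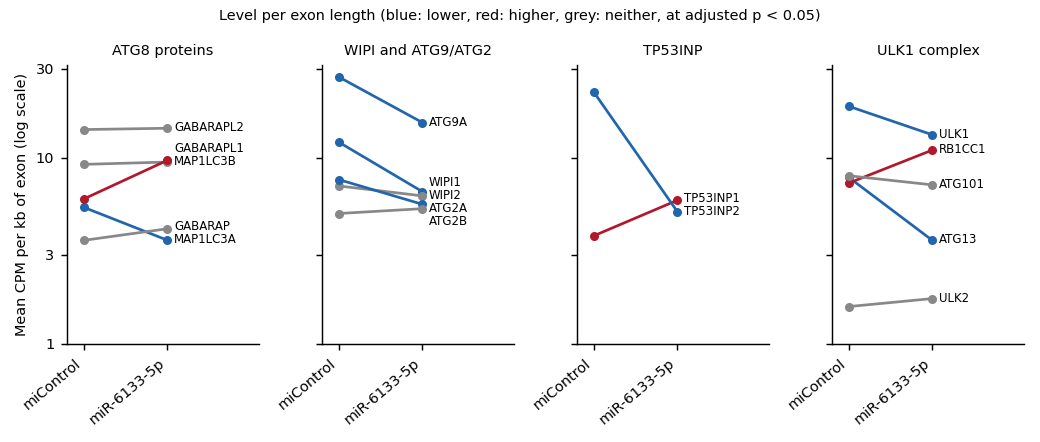
Mean level per kilobase of exon (CPM per kb, log axis) in miControl and miR-6133-5p libraries for 4 families, coloured by whether the gene passed an adjusted p-value of 0.05 and in which direction. The lines of *TP53INP2* and *TP53INP1* cross, as do those of *GABARAPL1* and *MAP1LC3B* within their spread. Other pairs cross too, among them *ATG13* and *RB1CC1*, *MAP1LC3A* and *GABARAP*, and *ATG2A* and *WIPI2*. *ATG9A* stays the highest of its group at 27.1 and 15.4 CPM per kb.

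The conjugation enzymes and ATG4 proteases had 3 of 10 genes higher (against 14.1% of all tested genes) and none lower (against 16.1%) at an adjusted p-value below 0.05, with a median log2 fold change of 0.15. *ATG16L1* (ENSG00000085978, chromosome 2 from 234118697 to 234204320), which places the ATG12-ATG5 conjugate on the membrane, was at 35.0 and 35.7 CPM under miControl and at 70.8 and 63.5 CPM in the mimic libraries. Its groups were well separated, with a rise from 35.3 ± 0.526 to 67.2 ± 5.18 CPM (SD, n = 2), for a fold change of 0.93 on the log2 scale (standard error 0.105, 95% interval 0.70 to 1.15, edgeR adjusted p = 2.42e-05). It was the largest rise of the 39 genes. *ATG4B*, the protease that primes ATG8 proteins and removes them from the membrane, was at 50.1 and 43.5 CPM under miControl and at 72.8 and 71.5 CPM in the mimic libraries. Its groups did not overlap, and the log2 fold change was 0.62 (standard error 0.107, edgeR adjusted p = 0.000669). *ATG7*, the E1-like enzyme that activates both ubiquitin-like proteins, went from 20.9 ± 0.517 to 27.4 ± 0.846 CPM, for a fold change of 0.39 on the log2 scale (standard error 0.109, edgeR adjusted p = 0.016). It missed 0.05 without either miControl replicate (edgeR adjusted p of 0.125 without replicate 1 and 0.188 without replicate 2), and exons of *VGLL4* on the opposite strand overlap 18.1% of its exonic sequence.

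The other 7 conjugation genes did not pass the test. *ATG5* and *ATG12*, which are joined to each other, had log2 fold changes of -0.19 (95% interval -0.42 to 0.04) and -0.02 (95% interval -0.25 to 0.21), and *ATG12* was at 0.14 under library totals. The E2-like enzyme genes *ATG3* and *ATG10* were at 0.13 and 0.10. Exons of *RPS23* on the opposite strand overlap 6.87% of the *ATG10* exon sequence. Under miControl *RPS23* was at 222.5 ± 8.64 CPM and *ATG10* at 5.41 ± 0.196 CPM, so that the value of *ATG10* is uncertain. Of the other ATG4 proteases, *ATG4A* was at 0.24, *ATG4C* at 0.16 and *ATG4D* at -0.31 on the log2 scale, the last with an edgeR adjusted p of 0.077 and 14.7% of its exon sequence overlapped by *KRI1* on the opposite strand. With miControl *KRI1* was at 43.5 ± 0.898 CPM and *ATG4D* at 14.2 ± 0.945 CPM, so that the value of *ATG4D* is also uncertain. *ATG3*, *ATG4A* and *ATG4C* passed 0.05 under library totals, where the median of all genes was also raised, and *ATG4A* did so without miR-6133-5p replicate 2 (edgeR adjusted p = 0.0419). Thus the scaffold *ATG16L1* rose while the genes of the conjugate it carries did not pass the test.

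Among the 5 ATG8 genes, *MAP1LC3A* fell, *GABARAPL1* rose and the other 3 had groups that overlapped. *GABARAPL1* was at 25.3 and 23.2 CPM under miControl and at 40.8 and 37.5 CPM in the mimic libraries. Both miR-6133-5p libraries were higher, the log2 fold change being 0.69 (standard error 0.110, edgeR adjusted p = 0.000385). *MAP1LC3A* was at 6.10 and 6.35 CPM under miControl and at 4.45 and 3.84 CPM in the mimic libraries, for a fold change of -0.59 on the log2 scale (standard error 0.159, edgeR adjusted p = 0.013). The groups did not overlap, but the gene missed 0.05 under library totals (edgeR adjusted p = 0.0527) and without either miControl replicate (0.0816 without replicate 1 and 0.0887 without replicate 2).

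*MAP1LC3B*, the source of the LC3 protein most often used to follow autophagosomes, was at 47.2 and 45.3 CPM under miControl and at 51.9 and 43.4 CPM in the mimic libraries. Its log2 fold change was 0.04 (95% interval -0.20 to 0.28). Its near-identical copy *MAP1LC3B2* was listed at 0 in all 4 libraries, and reads that match both genes are uncertain. *GABARAPL2* was at 43.1 and 42.0 CPM under miControl and at 46.9 and 39.6 CPM in the mimic libraries, with a log2 fold change of 0.02 (95% interval -0.22 to 0.26). *GABARAP* was at 7.30 and 6.72 CPM under miControl and at 9.07 and 7.11 CPM in the mimic libraries, that is, a log2 fold change of 0.20 (95% interval -0.13 to 0.54). Because a gene on the same strand that was listed at 0 covers 35.4% of its exon bases, the level of *GABARAP* is uncertain. Per kilobase, *GABARAPL2* was the highest of the 5 in both groups, at 14.1 ± 0.275 and 14.4 ± 1.70 CPM per kb. *GABARAPL1* lay below *MAP1LC3B* under miControl, at 5.99 ± 0.363 against 9.19 ± 0.270 CPM per kb, and in the mimic libraries the pair did not differ beyond their spread, at 9.66 ± 0.581 and 9.46 ± 1.18 CPM per kb.

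The cargo receptors had 2 of 3 genes higher at an adjusted p-value below 0.05 (against 14.1% of all tested genes), and the miR-6133-5p libraries lay above the miControl libraries for all 3 (against 33.2%). *SQSTM1* (ENSG00000161011, chromosome 5 from 179233398 to 179265078), which encodes p62, a receptor for ubiquitin-bound cargo that is itself degraded by autophagy, was at 172 and 159 CPM under miControl and at 311 and 306 CPM in the mimic libraries. The rise, from 166 ± 9.20 to 308 ± 3.70 CPM (SD, n = 2), was a log2 fold change of 0.89 (standard error 0.103, 95% interval 0.67 to 1.12, edgeR adjusted p = 2.74e-05). *SQSTM1* went from number 5 to number 1 of the 39 genes in level per kilobase, from 22.0 ± 1.22 to 40.9 ± 0.491 CPM per kb. Exons of *MGAT4B* and *MRNIP* on the opposite strand overlap 22.4% of its exonic sequence, and the strand setting of the counting is not given. The level and rank of *SQSTM1* are uncertain to that extent. *MGAT4B* was at 142 ± 8.90 and 132 ± 7.89 CPM with a log2 fold change of -0.11 (edgeR adjusted p = 0.496), and *MRNIP* was at 20.8 ± 2.42 and 31.2 ± 0.308 CPM with a log2 fold change of 0.58 (edgeR adjusted p = 0.00198).

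*NBR1*, a receptor that works beside p62, was at 74.8 and 77.5 CPM under miControl and at 117 and 119 CPM in the mimic libraries. The replicates were close and the groups apart, the log2 fold change being 0.63 (standard error 0.1004, edgeR adjusted p = 0.000368). *OPTN*, a receptor for damaged mitochondria and bacteria, went from 66.0 ± 0.764 to 73.1 ± 5.07 CPM, that is, a log2 fold change of 0.15 (95% interval -0.07 to 0.37) that did not pass the test under TMM and passed 0.05 under library totals (edgeR adjusted p = 0.0305). These are RNA levels, and no measurement of the p62 protein or of autophagic flux was analysed here.

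None of the 3 genes of *TFEB* and the lysosomal membrane passed the test, against 30.2% of all tested genes in either direction. *TFEB*, a transcription factor for lysosomal and autophagy genes, was at 1.505 and 1.85 CPM under miControl and at 1.90 and 2.26 CPM in the mimic libraries. It had the lowest level per kilobase of the 39 genes in both groups, and its 95% interval, -0.21 to 0.83 around a log2 fold change of 0.31, was the widest. *LAMP1*, a major lysosomal membrane protein gene, had overlapping groups at 184 ± 4.28 and 179 ± 5.56 CPM and a log2 fold change of -0.04 (95% interval -0.26 to 0.17), or 0.12 under library totals. *LAMP2*, needed for fusion with the lysosome, had a log2 fold change of -0.24 (95% interval -0.46 to -0.02, edgeR adjusted p = 0.0991), and it passed 0.05 without either miR-6133-5p replicate (0.0305 without replicate 1 and 0.0233 without replicate 2).

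Around these genes, 147 further autophagy and lysosome genes were listed in 8 groups, and 142 of them were tested. At an adjusted p-value below 0.05, 23 were lower (16.2%, against 16.1% of all tested genes) and 28 higher (19.7%, against 14.1%), with 91 passing in neither direction and a median log2 fold change of 0.08. Under library totals the counts were 16 lower and 55 higher. The count of 28 higher was 13 without miControl replicate 1 and 11 without miControl replicate 2, and the count of 23 lower was 13 without miControl replicate 1. By the rule for calls, 7 were lower (4.93%, against 5.54% of all tested genes) and 3 higher (2.11%, against 2.9%), both shares below those of all genes. *MAP1LC3C*, *VAMP8* and *TFEC* had too few counts for a test, and *NCOA4* and *MAP1LC3B2* were listed at 0 in all libraries. Because the annotation release of the counting is not given, these values of 0 are uncertain and need not mean absent RNA.

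**Figure D4:**
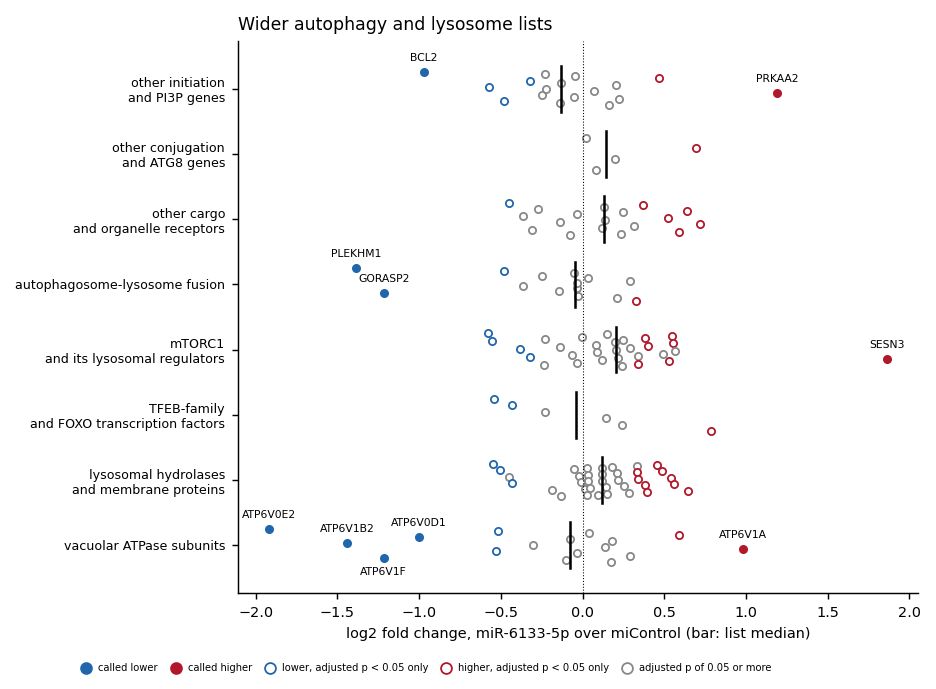
The 142 tested genes of 8 wider autophagy and lysosome lists, with the log2 fold change of miR-6133-5p over miControl on the x axis and a black bar at each list's median. Genes called lower or higher are filled and named, and the vacuolar ATPase list holds 4 of the 7 called lower.

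The vacuolar ATPase, the proton pump that acidifies the lysosome, held 6 of 17 genes lower (35.3%, against 16.1% of all tested genes) and 2 higher (11.8%, against 14.1%) at an adjusted p-value below 0.05, with a median log2 fold change of -0.07. *ATP6V0E2*, a subunit of the membrane sector, was at 25.0 and 23.7 CPM under miControl and at 6.88 and 5.99 CPM in the mimic libraries, for a fold change of -1.92 on the log2 scale (standard error 0.127, edgeR adjusted p = 2.79e-07). *ATP6V1B2*, a subunit of the catalytic head, was at 95.5 and 100.1 CPM under miControl and at 35.3 and 36.7 CPM in the mimic libraries, for a fold change of -1.44 on the log2 scale (standard error 0.102, edgeR adjusted p = 4.51e-07). *ATP6V1A*, which forms that head with the B subunit, moved the opposite way, from 42.4 and 44.5 CPM to 87.5 and 84.4 CPM, for a fold change of 0.98 on the log2 scale (standard error 0.101, edgeR adjusted p = 1.03e-05). The partner subunits of the head thus changed in opposite directions, each by more than the spread between replicates. *ATP6V1F*, a subunit of the central stalk, fell with a log2 fold change of -1.22 (edgeR adjusted p = 1.11e-05).

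Of the 14 fusion genes tested, 3 were lower (21.4%, against 16.1% of all tested genes) and 1 higher (7.14%, against 14.1%) at an adjusted p-value below 0.05. *PLEKHM1*, an adaptor that links autophagosomes and lysosomes, was at 70.9 and 66.5 CPM under miControl and at 23.9 and 28.6 CPM in the mimic libraries, for a fold change of -1.39 on the log2 scale (standard error 0.115, edgeR adjusted p = 1.62e-06). *GORASP2*, a Golgi stacking protein gene, was at 121 and 113 CPM under miControl and at 51.5 and 49.4 CPM in the mimic libraries, for a log2 fold change of -1.215 (standard error 0.103, edgeR adjusted p = 1.94e-06). The median of the list was -0.04 on the log2 scale.

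The mTORC1 list, the nutrient-sensing kinase that restrains ULK1 and its lysosomal regulators, had 4 of 30 genes lower (13.3%, against 16.1% of all tested genes) and 7 higher (23.3%, against 14.1%) at an adjusted p-value below 0.05. *SESN3*, a stress-induced inhibitor of mTORC1, rose from 10.6 and 12.0 CPM under miControl to 40.3 and 42.1 CPM in the mimic libraries, for a fold change of 1.86 on the log2 scale (standard error 0.117, edgeR adjusted p = 1.97e-07). It was the largest rise among the 142 genes. In the list of other initiation genes, with 4 of 17 lower (23.5%) and 2 higher (11.8%), *PRKAA2*, a catalytic subunit of the AMP-activated kinase, rose from 2.095 and 1.84 CPM to 4.08 and 4.87 CPM, for a fold change of 1.19 on the log2 scale (standard error 0.198, edgeR adjusted p = 0.00052). *BCL2*, which binds and restrains Beclin 1, fell from 10.4 and 12.4 CPM to 5.20 and 6.44 CPM, for a fold change of -0.97 on the log2 scale (standard error 0.154, edgeR adjusted p = 0.000368). An adjusted p-value below 0.01 was lost for *PRKAA2* without either miControl replicate (0.0117 and 0.0144, edgeR) and for *BCL2* without miControl replicate 2 (0.0108, edgeR).

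The remaining lists held no gene past the call limit. The lysosomal hydrolases and membrane proteins had 3 of 36 genes lower (8.33%, against 16.1% of all tested genes) and 9 higher (25.0%, against 14.1%) at an adjusted p-value below 0.05, within -0.55 and 0.64 on the log2 scale, and a median of 0.12. Other cargo and organelle receptors had 1 of 18 lower (5.56%) and 5 higher (27.8%), the *TFEB*-family and FOXO transcription factors 2 of 6 lower (33.3%) and 1 higher (16.7%), and the other conjugation genes 1 of 4 higher (25.0%).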

How the data were processed

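LX-2 RNA was sequenced with a stranded mRNA kit in pairs of 150-base reads. The authors aligned them to GRCh37 and deposited raw counts per Ensembl gene for 4 libraries. The submitters' processing notes name STAR 2.5.3a, featureCounts and Subread 1.6.4. A deposited mapping summary was not used. The annotation release and strand setting of the counting are not given in the sources used here. Low counts were removed by filterByExpr, TMM factors were computed, and 18252 genes were tested with edgeR 4.0.16 under R 4.3.3 (glmQLFit and glmQLFTest, 2-sided, Benjamini–Hochberg adjustment over all tested genes), with no block for replicate number. Calls took the limits of the study's methods, 0.01 for the adjusted p-value and 0.8 for the log2 fold change in either direction. CPM used no pseudocount. The common biological coefficient of variation was 0.105. Exact permutation of 2 against 2 libraries cannot give a p-value below 0.333. One count was worth between 0.0101 and 0.0203 CPM. Replicates differed by more than counting noise (chi-square per degree of freedom 13.8 for miControl and 52.1 for miR-6133-5p). Symbols, positions, exon lengths and 3′ UTRs came from GENCODE v44 lifted to GRCh37, with numpy 2.4.6, pandas 2.3.3 and matplotlib 3.10.9. The procedure was tested on simulated data. The genes and lists were chosen with earlier results of these data known. Named genes were those called, both TP53INP genes, all ATG8 genes and the lowest adjusted p-value of each role, with up to 3 called genes per wider list and direction. Alternatives were RLE factors, library totals, DESeq2 1.42.0, no filter, at least 10 counts in every library, a replicate block, glmTreat and each library left out in turn. One sequence is not reported here.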

Additional observations from a re-analysis of the deposited data

How the results depend on the processing

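Under RLE factors, DESeq2, no filter, at least 10 counts in every library and a replicate block, 4 of the 39 genes were called lower and 2 higher, with 7 lower and 9 higher at an adjusted p-value below 0.05, as in the report. The replicate block, which paired libraries that share only a number (r = 0.049 between the deviations of the replicates 1, over 2 pairs), gave 28 lower and 33 higher genes in the wider lists. Library totals alone gave 2 called lower, a median log2 fold change of 0.205 and 55 higher genes in the wider lists, and they turned the direction of *ATG101* (0.0016), *BECN1* (0.088), *PIK3C3* (0.16), *ATG12* (0.14) and *LAMP1* (0.12), none of which passed the test under either scaling. *PIK3C3*, at -0.01 in the report, was at 0.0035 with no filter and 0.00013 with the replicate block. When glmTreat tested the fold change against 0.8, 1 gene, *TP53INP2*, was called lower and 0 higher, which follows from testing against the limit itself. Its edgeR adjusted p-values were 0.0282 for *ATG13*, 0.912 for *WIPI1*, 1 for *ATG9A*, 0.583 for *ATG16L1* and 0.806 for *SQSTM1*, and 0.2 for *PRKAA2*, 0.643 for *BCL2*, 0.331 for *ATP6V0D1*, 0.254 for *ATP6V1A* and 0.021 for *ATP6V1F*.

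With each library left out in turn, in fits where the lone library was assumed to vary like the other group, between 3 and 4 genes were called lower and between 2 and 3 higher. At an adjusted p-value below 0.05, between 4 and 9 of the 39 were lower and between 6 and 10 higher, the lowest counts being those without miControl replicate 1. The median log2 fold change ran from -0.000907 to 0.056. In the wider lists, between 13 and 30 genes were lower and between 11 and 33 higher. *TP53INP2* stayed between -2.19 and -2.11 and *ATG13* between -1.16 and -1.12. Directions turned for genes that lay near 0, namely *PIK3C3* (-0.15 to 0.12), *AMBRA1* (-0.0902 to 0.14), *ATG2B* (-0.12 to 0.24), *ATG3* (-0.00091 to 0.23), *ATG12* (-0.14 to 0.06), *MAP1LC3B* (-0.11 to 0.15) and *GABARAPL2* (-0.12 to 0.12). The causes of the changes under library totals and without single libraries were not tested.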
